A study of Caenorhabditis elegans with 6 samples.

Results

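The cytochrome P450 (cyp), UDP-glucuronosyltransferase (ugt) and glutathione S-transferase (gst) genes of the nematode Caenorhabditis elegans were described in plp-1(ok2155) mutants and in wild-type animals. Members were all genes whose symbol began with cyp, ugt or gst followed by a hyphen and a number, which gave 81 cyp, 65 ugt and 44 gst genes, 190 of the 46769 genes in the deposited gene table. The data came from 3 libraries of the plp-1(ok2155) strain and 3 libraries of the wild-type strain N2, which the labels call biological replicates. Both strains were hermaphrodite cultures of embryos, larvae and adults together, kept at 20 °C on plates with OP50 bacteria until the plates were crowded but food remained. No other allele or treatment is named in the labels, and each library holds RNA from whole animals of all stages. The plp-1 gene encodes a relative of Pur-alpha, a nucleic acid binding protein, and the series title gives transcriptome profiling of the mutant as the aim.

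The 3 families are the main enzyme families by which animals process foreign and internally made lipophilic chemicals. Cytochrome P450s insert oxygen into their substrates, UGTs then attach a sugar, and GSTs attach glutathione, so that the product is more soluble and can be pumped out of the cell. In the worm many of these genes are active in the intestine, and several respond to xenobiotics or oxidative stress through the transcription factor SKN-1 (the worm Nrf protein) or through nuclear receptors. Some members have roles inside the body instead, in making lipids of the eggshell, fatty acid signals or steroid hormones.

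The libraries held between 39331848 and 53486099 counts. The gene plp-1 itself (chromosome IV, 7633430 to 7634431, WBcel235) had 20.4, 17.6 and 23.03 CPM (counts scaled to a common library size) in mutant replicates 1, 2 and 3, against 293, 430 and 379 CPM in wild-type replicates 1, 2 and 3. Its log2 fold change, mutant over wild-type, was -4.17 (SE 0.28, adjusted p = 0.00242 by edgeR), so the libraries matched their labels. Library sizes were corrected for composition, and values per library are given throughout in the order of replicates 1, 2 and 3.

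Of the members, 71 cyp, 63 ugt and 38 gst genes had enough counts to be tested, within a fit of 15090 genes in all. No member of the cyp, ugt or gst family passed an edgeR adjusted p of 0.05, where 0.345% of all genes tested did, 0.265% higher and 0.0795% lower in the mutant. The smallest adjusted p was 0.186 among cyp genes, 0.104 among ugt genes and 0.244 among gst genes. At an unadjusted p under 0.05, 1 cyp gene was higher and 6 were lower in the mutant, 5 ugt genes were higher and 3 lower, and 2 gst genes were higher and 1 lower. The same threshold was met by 9.56% of all genes tested, 6.36% in the higher and 3.2% in the lower direction. In the cyp family 8.45% of tested members met it in the lower direction and 1.41% in the higher direction. The corresponding shares were 4.76% lower and 7.94% higher for ugt genes and 2.63% lower and 5.26% higher for gst genes. In RNA of whole animals, fewer cells of a type and less RNA per cell cannot be told apart.

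A fit that paired libraries of the same replicate number called 4 members, 1 cyp and 3 ugt genes, where it called 1.45% of all genes tested (1.03% higher and 0.424% lower). They were cyp-35D1, ugt-18 and ugt-44, which were lower in the mutant, and ugt-41, which was higher. The labels do not state this pairing, which was taken from these same data, so the calls of the paired fit depend on that choice. DESeq2 called 6 members, where it called 3.42% of all genes tested (2.81% higher and 0.612% lower). These were cyp-13A2, ugt-41 and gst-24, higher in the mutant, and cyp-13B1, cyp-33C4 and cyp-35D1, lower in the mutant. DESeq2 gave no adjusted p to 4 cyp, 1 ugt and 5 gst genes, which it could therefore not call. Both of these alternatives called cyp-35D1 and ugt-41. With any single library left out no member was called, and between 1 and 23 of all genes tested were, so that these fits say little about single members.

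Fold changes were spread on both sides of 0 in each family. In the cyp family 27 tested members had a positive and 44 a negative log2 fold change, with a median of -0.39 and quartiles of -0.91 and 0.39. In the ugt family 25 were positive and 38 negative, with a median of -0.10 and quartiles of -0.58 and 0.57. In the gst family 18 were positive and 20 negative, with a median of -0.11 and quartiles of -0.43 and 0.20. Over all genes tested the median was -0.03, with quartiles of -0.38 and 0.32. An absolute log2 fold change over 1 was found for 18 cyp members (25.4%), 19 ugt members (30.2%) and 5 gst members (13.2%), beside 16.5% of all genes tested. Members with an absolute log2 fold change over 1 lay in both directions in each family.

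**Figure D1:**
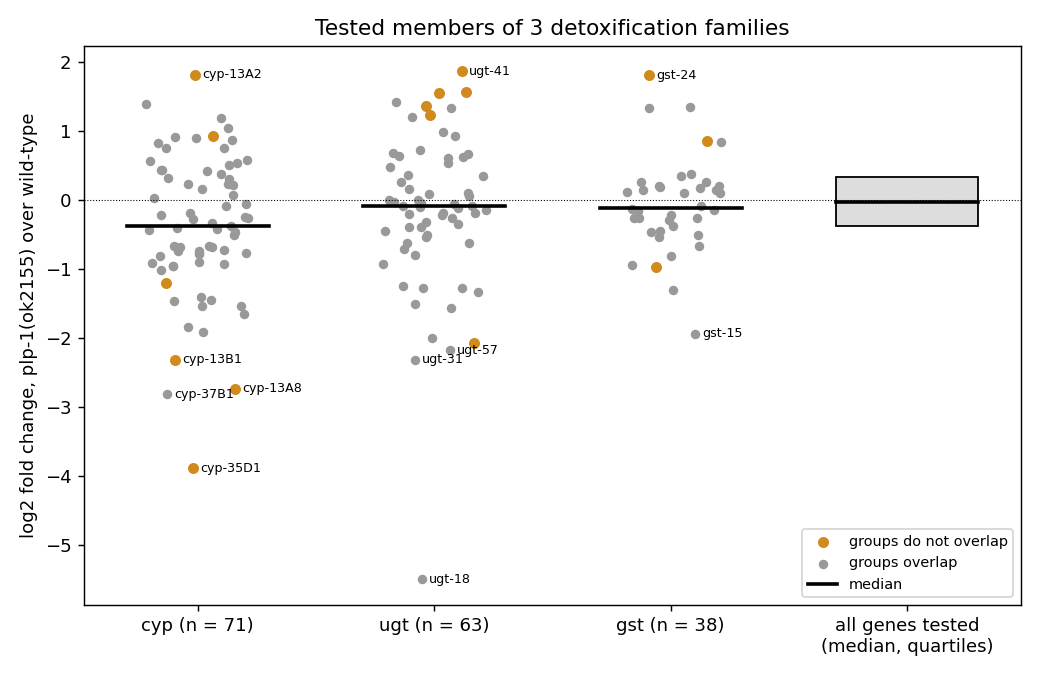
Log2 fold change, plp-1(ok2155) over wild-type, of each tested member (points) of the cyp, ugt and gst families, with the median as a bar and, at the right, the median and quartiles of all genes tested. Members whose 3 mutant and 3 wild-type libraries do not overlap in CPM are coloured orange; the cyp median lies at -0.39 and the lowest member is ugt-18 at -5.50.

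The groups did not overlap in CPM for 15 members, as for 14.2% of all genes tested. Higher in every mutant library were cyp-13A2 and cyp-34A2 (2 of 71 cyp genes, 2.82%), ugt-14, ugt-21, ugt-25, ugt-27 and ugt-41 (5 of 63 ugt genes, 7.94%) and gst-12 and gst-24 (2 of 38 gst genes, 5.26%). Of all genes tested, 8.75% had no overlap in this direction. Lower in every mutant library were cyp-13A8, cyp-13B1, cyp-33C8 and cyp-35D1 (5.63%), ugt-24 (1.59%) and gst-35 (2.63%), beside 5.49% of all genes tested. These shares lay near or below the background in each family.

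Among cytochrome P450s, cyp-35D1 had the largest absolute log2 fold change of the 71 tested genes. This enzyme of the xenobiotic-responsive cyp-35 group (gene 184495, chromosome V, 16069255 to 16071259) hydroxylates the drug thiabendazole. It had 0, 0.357 and 0.528 CPM in the mutant libraries (0, 18 and 22 counts), against 1.749, 6.13 and 5.34 CPM in the wild-type libraries (113, 290 and 178 counts). Every mutant library lay below every wild-type library, although the gene was weakly read in both groups. On the log2 scale the fold change was -3.89 (SE 1.10, adjusted p = 0.225 by edgeR). It was -4.34 with paired replicates (adjusted p = 0.0273) and -3.90 in DESeq2 (adjusted p = 0.00114), and it stayed between -4.63 and -3.31 when single libraries were left out. The neighbouring name cyp-35D2, which is given no biotype and was not matched in the annotation, had 0 counts in all libraries.

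Of the cyp genes with a positive fold change, cyp-13A2 had the smallest p. The gene (188360, chromosome II, 9783818 to 9787353) had 6.20, 17.5 and 8.89 CPM in the mutant, against 2.71, 3.28 and 3.33 CPM in wild-type. All mutant libraries lay above all wild-type libraries, but mutant replicate 2 stood well above the other mutant libraries. Means were 10.9 ± 5.93 CPM in the mutant and 3.10 ± 0.343 CPM in wild-type (SD, n = 3 each), and the log2 fold change was 1.81 (SE 0.47, adjusted p = 0.186 by edgeR). In DESeq2 the value was 1.80 (adjusted p = 0.0071), and with paired replicates the adjusted p was 0.0734.

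Next came cyp-34A2 with 8.25, 6.93 and 13.9 CPM in the mutant, against 6.32, 3.93 and 5.13 CPM in wild-type. The groups were close to touching, and the log2 fold change was 0.92 (SE 0.42, adjusted p = 0.546 by edgeR), or 0.48 without mutant replicate 3. Its exons overlap those of T10H4.17 on the opposite strand by 89 bases, and the sources used here do not say if counting was strand-specific. For cyp-36A1, which acts downstream of the hypoxia factor HIF-1, the mutant libraries held 24.7, 17.3 and 58.7 CPM and the wild-type libraries 16.5, 20.8 and 19.5 CPM. The log2 fold change of 0.83 (SE 0.45, adjusted p = 0.624 by edgeR) rested on mutant replicate 3, without which it was 0.08.

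On the lower side stood cyp-13B1, a P450 of the cyp-13 group (gene 181462, chromosome X, 13406768 to 13409618). It had 7.67, 9.05 and 6.003 CPM in the mutant, against 65.9, 9.09 and 38.3 CPM in wild-type. Mutant libraries were alike, whereas wild-type libraries ranged widely and replicate 2 barely exceeded the mutant. On the log2 scale the fold change was -2.32 (SE 0.64, adjusted p = 0.212 by edgeR), and DESeq2 gave -2.33 (adjusted p = 0.00724). The same wild-type pattern, with replicate 2 lowest, was seen in cyp-33C8, cyp-33C4 and cyp-37A1. For cyp-33C8 the mutant had 10.8, 10.1 and 14.1 CPM and wild-type 34.8, 16.7 and 29.02 CPM, with a log2 fold change of -1.20 (SE 0.36, adjusted p = 0.270 by edgeR). For cyp-33C4 the mutant had 3.67, 4.11 and 7.08 CPM and wild-type 15.001, 6.43 and 34.9 CPM, so that the groups overlapped at wild-type replicate 2. This gave a log2 fold change of -1.92 (SE 0.62, adjusted p = 0.324 by edgeR), -1.91 in DESeq2 (adjusted p = 0.0428) and -1.17 without wild-type replicate 3. In cyp-37A1 the mutant had 12.8, 14.1 and 24.5 CPM and wild-type 54.0, 17.8 and 90.3 CPM, with overlap and a log2 fold change of -1.65 (SE 0.56, adjusted p = 0.357 by edgeR). The least abundant of the non-overlapping P450s was cyp-13A8, with 0, 0.119 and 0.312 CPM in the mutant and 0.495, 0.571 and 1.86 CPM in wild-type. The difference amounted to -2.74 on the log2 scale (SE 1.09, adjusted p = 0.470 by edgeR).

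The plot of single members by library sets these genes beside those of the other families.

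**Figure D2:**
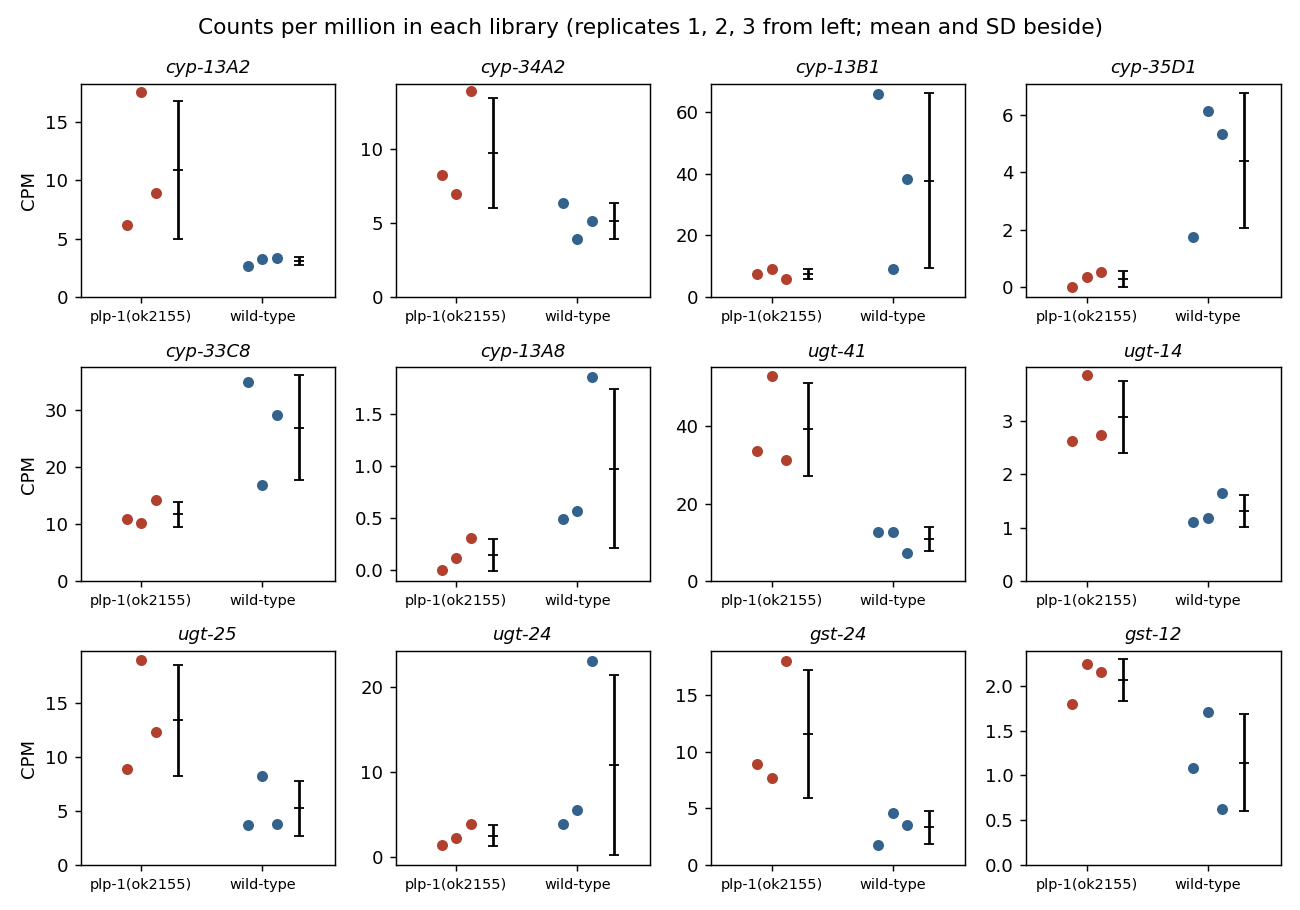
CPM of 12 members in each library, with plp-1(ok2155) at the left and wild-type at the right of each panel; points are replicates 1, 2 and 3 from the left, and the bar beside them is the mean with its SD (n = 3). In these 12 members the groups do not overlap, but wild-type replicate 2 of cyp-13B1, at 9.09 CPM, lies next to the highest mutant library at 9.05 CPM.

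The most abundant P450s included genes of the cyp-31A group, none of which passed the test. Levels between genes are compared by the deposited FPKM, which are scaled to transcript length and library size. The highest mean FPKM of the cyp family was that of cyp-31A2, with 79.3 FPKM in the mutant and 89.0 FPKM in wild-type, followed by cyp-31A5 with 71.7 FPKM in the mutant and 81.7 FPKM in wild-type. The P450s cyp-31A2 and cyp-31A3, which are close copies of each other, make lipids needed for the eggshell together with the reductase emb-8. For cyp-31A2, CPM were 135, 136 and 92.3 in the mutant and 133, 151 and 132 in wild-type, a log2 fold change of -0.19 (SE 0.24, adjusted p = 0.838 by edgeR). For cyp-31A3 the log2 fold change was 0.07 (SE 0.36, adjusted p = 0.971 by edgeR) and for cyp-31A5 -0.22 (adjusted p = 0.859 by edgeR). How reads of close copies were divided is not shown by the table, so these values are uncertain for the single genes. The mitochondrial-type P450 cyp-44A1 had 58.4, 65.4 and 47.9 CPM in the mutant, against 61.7, 78.7 and 63.2 CPM in wild-type. This gave a log2 fold change of -0.25 (SE 0.24, adjusted p = 0.792 by edgeR).

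The third most abundant P450 was cyp-35A2, which responds to xenobiotics and affects fat storage. It had 61.1, 65.4 and 111 CPM in the mutant, against 74.6, 130 and 202 CPM in wild-type. The groups overlapped, with a log2 fold change of -0.77 (SE 0.40, adjusted p = 0.604 by edgeR), or -0.38 without wild-type replicate 3. For cyp-35B1, a target of the insulin pathway factor DAF-16, CPM were 14.7, 13.4 and 40.1 in the mutant and 33.4, 10.95 and 65.0 in wild-type. The log2 fold change of -0.68 (adjusted p = 0.795 by edgeR) was -0.01 without wild-type replicate 3. The other named P450s also overlapped between groups. They were cyp-13A12, which acts in the behavioural response to returning oxygen (log2 fold change -1.40, adjusted p = 0.710 by edgeR), cyp-14A2 (0.42, adjusted p = 0.825), cyp-29A3 (0.91, adjusted p = 0.678) and cyp-33E2 (-0.51, adjusted p = 0.797). Without wild-type replicate 3, cyp-13A12 was at -0.20 and cyp-33E2 at -0.03. Without wild-type replicate 2, cyp-14A2 was at -0.02 and cyp-29A3 at 1.48, and cyp-29A3 was at 0.49 without mutant replicate 3. Enzymes of the last 2 groups, cyp-29A and cyp-33E, are known for making signalling molecules from polyunsaturated fatty acids.

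Values of the cyp subfamilies are given as a description, with no test between them. All 5 tested cyp-25A genes had negative log2 fold changes, between -1.46 and -0.10. The 3 cyp-33E genes lay between -0.69 and -0.51 and the 3 cyp-35B genes between -0.79 and -0.68. These values moved with single libraries, as cyp-33E2 ran from -0.997 to -0.03, cyp-35B3 from -1.77 to -0.28 and cyp-25A1 from -3.64 to -0.85 when libraries were left out in turn. None of these members had an edgeR adjusted p under 0.640. The 12 cyp-13A genes ran from -2.74 for cyp-13A8 to 1.81 for cyp-13A2, with 7 positive. Of 7 tested cyp-33C genes 2 were positive, with a median of -0.73, of 8 tested cyp-34A genes 4 were positive, and of 5 cyp-14A genes 4 were positive, with a median of 0.42.

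Single libraries set some of the subfamily values. In cyp-25A1 the mutant libraries held 7.002, 4.43 and 64.6 CPM and the wild-type libraries 2.43, 112 and 94.6 CPM, a range of over 10 fold inside each group. In cyp-34A9 the mutant libraries held 28.7, 28.4 and 41.5 CPM and the wild-type libraries 151, 9.49 and 127 CPM. For cyp-37B1 the values were 2.38, 1.83 and 21.6 CPM in the mutant and 109, 1.73 and 71.3 CPM in wild-type, with a log2 fold change of -2.82 (SE 1.36, adjusted p = 0.572 by edgeR), which was -4.97 without mutant replicate 3. The groups overlapped in each of these 3 genes.

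Of the ugt genes, ugt-41 had the smallest p of all members. It (gene 184295, chromosome V, 7161247 to 7163565, minus strand) encodes a UGT, and had 33.5, 52.9 and 31.1 CPM in the mutant, against 12.6, 12.7 and 7.17 CPM in wild-type. The lowest mutant library lay more than 2 fold above the highest wild-type library. Means were 39.2 ± 11.9 CPM in the mutant and 10.8 ± 3.14 CPM in wild-type (SD, n = 3 each). The log2 fold change was 1.86 (SE 0.36), with an unadjusted p of 0.000847 and an edgeR adjusted p of 0.104. It was 1.87 with paired replicates (adjusted p = 0.0103) and 1.84 in DESeq2 (adjusted p = 0.000565). It lay between 1.57 and 1.97 when single libraries were left out, with the smallest of those adjusted p-values at 0.120.

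Other UGT genes with higher mutant levels were less separated. For ugt-14 the mutant had 2.62, 3.85 and 2.74 CPM and wild-type 1.10, 1.18 and 1.65 CPM, with a log2 fold change of 1.23 (SE 0.43, adjusted p = 0.377 by edgeR). For ugt-25 the mutant had 8.87, 19.0 and 12.3 CPM and wild-type 3.73, 8.20 and 3.75 CPM, with a log2 fold change of 1.36 (SE 0.48, adjusted p = 0.381 by edgeR). The groups of ugt-25 stood apart by less than 1 CPM, and its exons overlap those of mlst-8 on the opposite strand by 26 bases. In ugt-21 the mutant had 13.2, 20.8 and 38.3 CPM and wild-type 3.75, 12.2 and 8.85 CPM, with a log2 fold change of 1.54 (SE 0.55, adjusted p = 0.387 by edgeR).

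Lower mutant levels were seen in ugt-18 and ugt-44, which the paired fit called. For ugt-18 (gene 179759, chromosome V, 12820333 to 12822754) the mutant libraries had 12, 0 and 53 counts and the wild-type libraries 2518, 0 and 1005 counts. Both replicates 2 had no count, and in the other replicates the mutant lay far below wild-type. In the unpaired fit the log2 fold change was -5.50 (SE 2.1, adjusted p = 0.444 by edgeR), and with paired replicates it was -5.73 (adjusted p = 0.00703). For ugt-44 (gene 177939, chromosome IV, 10469808 to 10471775) the mutant had 10.8, 24.5 and 129 CPM and wild-type 29.8, 111 and 347 CPM. The mutant library was the lower in every pair of the same number, and replicate 3 was the highest and replicate 1 the lowest library of both groups. In the unpaired fit the log2 fold change was -1.58 (SE 1.03, adjusted p = 0.690 by edgeR), and -1.70 with paired replicates (adjusted p = 0.00735). Leaving out mutant replicate 3 gave -3.25, and leaving out wild-type replicate 3 gave -0.31.

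The remaining named ugt genes were ugt-24 and ugt-1 on the lower side and the abundant ugt-22 and ugt-62. In ugt-24 the mutant had 1.51, 2.26 and 3.91 CPM and wild-type 3.93, 5.58 and 23.03 CPM, and the log2 fold change of -2.08 (SE 0.74, adjusted p = 0.385 by edgeR) was -0.90 without wild-type replicate 3. In ugt-1 the mutant had 23.3, 27.1 and 18.3 CPM and wild-type 92.1, 18.6 and 55.3 CPM, with a log2 fold change of -1.27 (SE 0.52, adjusted p = 0.485 by edgeR), which was -0.70 without wild-type replicate 1. The most abundant member of the family was ugt-22, with 145 ± 20.1 FPKM in the mutant and 102 ± 83.8 FPKM in wild-type (SD, n = 3 each). Its CPM were 212, 251 and 255 in the mutant and 22.6, 326 and 211 in wild-type, where replicate 1 stood more than 9 fold below the other wild-type libraries. The log2 fold change of 0.36 (SE 0.73, adjusted p = 0.909 by edgeR) was -0.17 without that library. The same library was low in ugt-62, which had 70.5, 137 and 153 CPM in the mutant and 28.2, 230 and 237 CPM in wild-type (log2 fold change -0.46, adjusted p = 0.867 by edgeR). It was -0.96 without that library and -0.08 without wild-type replicate 3.

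In the gst family gst-24 had the smallest p. The gene (185407, chromosome II, 13610480 to 13611294) had 8.91, 7.68 and 18.1 CPM in the mutant, against 1.76, 4.61 and 3.57 CPM in wild-type. All mutant libraries were above all wild-type libraries. Means were 11.6 ± 5.68 CPM in the mutant and 3.31 ± 1.44 CPM in wild-type (SD, n = 3 each), with a log2 fold change of 1.80 (SE 0.52, adjusted p = 0.244 by edgeR). DESeq2 gave 1.80 (adjusted p = 0.0216), and with paired replicates the adjusted p was 0.0801. Its neighbour gst-15 differed in the opposite direction, with 2.42, 2.16 and 4.59 CPM in the mutant and 21.7, 3.23 and 10.4 CPM in wild-type. Its log2 fold change was -1.95 (SE 0.68, adjusted p = 0.38 by edgeR), and -1.17 without wild-type replicate 1.

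Smaller differences were seen in gst-33, gst-12 and gst-22. In gst-33 the mutant had 3.13, 3.12 and 1.54 CPM and wild-type 0.929, 0.571 and 1.62 CPM (log2 fold change 1.33, SE 0.55, adjusted p = 0.501 by edgeR). In gst-12 the mutant had 1.80, 2.24 and 2.16 CPM and wild-type 1.08, 1.71 and 0.630 CPM (log2 fold change 0.85, adjusted p = 0.651 by edgeR). In gst-22 the mutant had 2.16, 2.32 and 7.68 CPM and wild-type 4.78, 8.05 and 17.5 CPM, with overlap (log2 fold change -1.32, adjusted p = 0.595 by edgeR), and the value was -2.23 without mutant replicate 3 and -0.65 without wild-type replicate 3. Of these 3 genes, the groups stood apart in gst-12.

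The groups overlapped in the 3 most abundant GSTs. The pi-class gst-1 was the most abundant member of all 3 families, with 545 ± 106 FPKM in the mutant and 481 ± 96.0 FPKM in wild-type (SD, n = 3 each). The fold change on the log2 scale was 0.12 (SE 0.29, adjusted p = 0.933 by edgeR). For gst-7 the mutant had 130, 146 and 129 CPM and wild-type 136, 227 and 213 CPM, so the groups overlapped at 1 wild-type library (log2 fold change -0.51, SE 0.26, adjusted p = 0.595 by edgeR). For gst-13 the mutant had 58.3, 88.1 and 186 CPM and wild-type 44.1, 234.9 and 205 CPM (log2 fold change -0.54, adjusted p = 0.828 by edgeR), and the value was -1.19 without mutant replicate 3 and -0.15 without wild-type replicate 2.

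GSTs with known substrates or regulators did not separate the groups either. The reporter gene of oxidative stress and SKN-1 activity, gst-4, had 12.5, 22.2 and 16.3 CPM in the mutant, against 10.99, 53.3 and 25.97 CPM in wild-type. Its log2 fold change was -0.82 (SE 0.54, adjusted p = 0.692 by edgeR), and -0.15 without wild-type replicate 2. The enzymes of gst-10 and gst-5 conjugate the lipid peroxidation product hydroxynonenal. For gst-10 the mutant had 57.8, 80.4 and 125 CPM and wild-type 7.86, 118 and 107 CPM (log2 fold change 0.18, SE 0.78, adjusted p = 0.966 by edgeR), and its sign turned when either mutant replicate 3 or wild-type replicate 1 was left out. For gst-5 the mutant had 38.3, 40.8 and 86.04 CPM and wild-type 21.97, 70.2 and 93.6 CPM (log2 fold change -0.17, adjusted p = 0.948 by edgeR). The zeta-class gst-42, an enzyme of tyrosine breakdown, had 24.9, 33.8 and 83.7 CPM in the mutant, against 30.4, 52.5 and 88.9 CPM in wild-type (log2 fold change -0.27, adjusted p = 0.906 by edgeR).

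The size of the families' expression was uneven. Over all 6 libraries the mean level was above 10 FPKM for 27 cyp, 22 ugt and 18 gst genes, and below 1 FPKM for 26 cyp, 13 ugt and 13 gst genes. The median member had 3.34 FPKM in the cyp family, 5.89 FPKM in the ugt family and 3.28 FPKM in the gst family. The 5 members with the highest counts took 32.6% of the summed CPM of the cyp family, 40.9% of that of the ugt family and 67.2% of that of the gst family. Too few counts for a test were found in 10 cyp, 2 ugt and 6 gst genes. Of these cyp-35D2 and ugt-35 had 0 counts in every library, where 3 counts correspond to 0.0464 to 0.0900 CPM per library. The most counts of an untested member were those of ugt-38, with 0, 122 and 0 counts in the mutant and 0, 0 and 62 counts in wild-type. No other untested member exceeded 33 counts in a library.

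Summed over members, the cyp family took 968, 1128 and 1471 CPM in the mutant, against 1392, 1376 and 2149 CPM in wild-type. The ugt family took 953, 1380 and 1599 CPM in the mutant, against 821, 1698 and 2311 CPM in wild-type. The gst family took 916, 1110 and 1387 CPM in the mutant, against 689, 1579 and 1464 CPM in wild-type. The groups overlapped in all 3 sums. Within pairs of the same replicate number the cyp sum was lower in the mutant in all 3 pairs, while the ugt and gst sums were higher in the mutant in pair 1 and lower in pairs 2 and 3. Means were 1189 ± 257 CPM in the mutant and 1639 ± 442 CPM in wild-type for cyp genes (SD, n = 3 each). They were 1311 ± 329 CPM in the mutant and 1610 ± 749 CPM in wild-type for ugt genes, and 1137 ± 237 CPM in the mutant and 1244 ± 484 CPM in wild-type for gst genes.

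Markers of the intestine and of adults were summed in the same way. The 13 intestinal markers in the table summed to 4203, 4006 and 6691 CPM in the mutant, against 4882, 4047 and 11270 CPM in wild-type, and none of them was at 0. The 6 yolk protein genes, made by the adult intestine, summed to 64240, 44681 and 94477 CPM in the mutant, against 37125, 88053 and 159710 CPM in wild-type. Mutant replicate 3 was the highest mutant library in all 3 families and both lists, and wild-type replicate 3 had the highest sum of the cyp and ugt families and of both lists. The other libraries did not follow one order, since all 3 families were higher in mutant replicate 2 than in mutant replicate 1, whereas both marker lists were lower. Median log2 fold changes were -0.21 for intestinal markers and -0.58 for yolk protein genes. Negative values were held by 10 of 13 intestinal markers and by all 6 yolk protein genes. The share with a positive value was 23.1% for intestinal markers and 0% for yolk protein genes, beside 47.5% of all genes tested. None of either list was called by edgeR, DESeq2 or the paired fit, and 1 intestinal marker and no yolk gene had an unadjusted p under 0.05. The part of these markers in the family values was not tested.

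**Figure D3:**
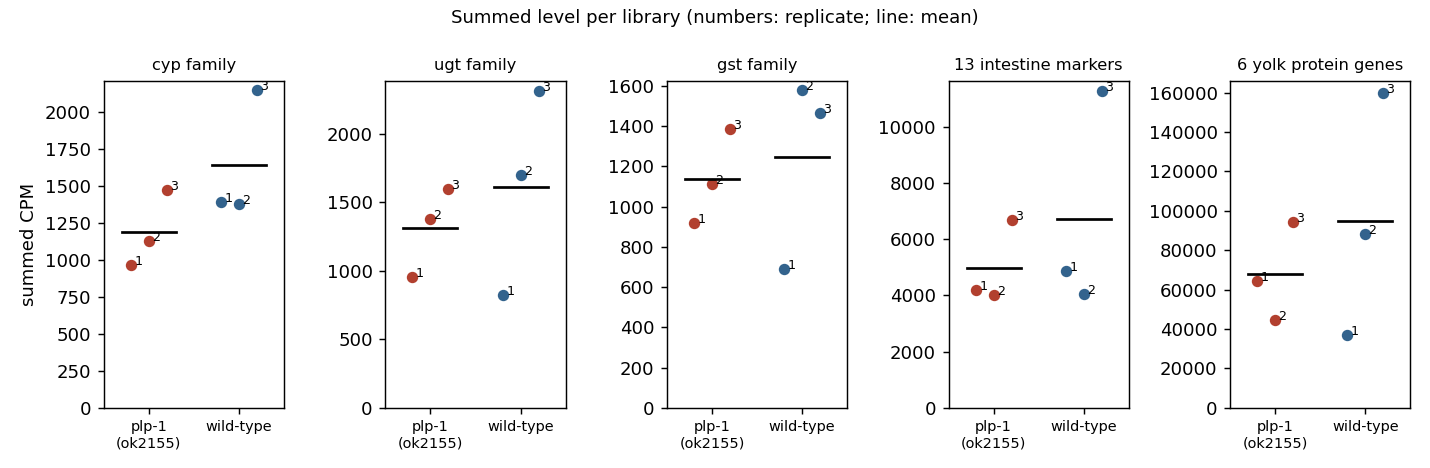
Summed CPM in each library of the cyp, ugt and gst families, of 13 intestine markers and of 6 yolk protein genes, with plp-1(ok2155) at the left and wild-type at the right of each panel; numbers give the replicate and lines the mean. Replicate 3 of wild-type is the highest library for cyp genes (2149 CPM), ugt genes (2311 CPM), intestine markers (11270 CPM) and yolk protein genes (159710 CPM).

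Other cell types and stages also differed between libraries. Log2 fold changes of the 27 tested sperm (msp) genes were all positive (median 3.09), and edgeR called none of them. Of the listed msp genes DESeq2 called 26 and the paired fit 2, all higher. These fits called 2.81% and 1.03% of all genes tested as higher. All 27 had an unadjusted p under 0.05 by edgeR, beside 6.36% of all genes tested in the higher direction. Members of this family are not independent of each other where their reads can be shared. The 35 listed msp genes summed to 185, 211 and 59.4 CPM in the mutant, against 16.1, 8.16 and 32.1 CPM in wild-type, with msp-32 at 0 throughout. Median log2 fold changes were 0.56 for 10 oocyte genes, 0.96 for 4 tested early endoderm genes of the embryo, 0.39 for 9 tested genes of the moulting epidermis and 0.08 for 8 excretory and pharyngeal genes. Summed CPM ran from 2068 to 5283 in the mutant and from 2001 to 3249 in wild-type for the oocyte list, and from 4.44 to 12.3 in the mutant and from 2.099 to 6.81 in wild-type for the endoderm list. They ran from 65.5 to 72.0 in the mutant and from 55.3 to 205 in wild-type for the epidermis list, and from 202 to 306 in the mutant and from 186 to 262 in wild-type for the excretory and pharyngeal list. Of these 4 lists edgeR called 1 gene, the cuticle collagen sqt-1, which was higher in the mutant (log2 fold change 3.89, adjusted p = 0.0382). The paired fit called 3 epidermal genes, all higher. DESeq2 called 4 epidermal genes, 3 higher and 1 lower, and 1 endoderm gene, which was higher. The 9 tested epidermal genes held 6 positive and 3 negative log2 fold changes, between -1.56 and 3.89. The part of these cell types and stages in the values of the 3 families was not tested.

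Libraries of a group varied in the 3 families as follows, given with no test. The median SD of log2 CPM within a group was 0.64 in the mutant and 0.92 in wild-type for cyp genes, 0.55 in the mutant and 1.05 in wild-type for ugt genes, and 0.61 in the mutant and 0.70 in wild-type for gst genes. Over all genes tested it was 0.42 in the mutant and 0.48 in wild-type. The median of mean log2 CPM was 2.83 for cyp, 3.05 for ugt and 2.21 for gst genes and 3.36 for all genes tested, so members were also somewhat less deeply counted. The SD was the larger in wild-type for 45 of 71 cyp genes (63.4%), 45 of 63 ugt genes (71.4%) and 23 of 38 gst genes (60.5%), beside 54.6% of all genes tested.

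The spread came from particular libraries and not the same one in each gene. Mutant replicate 3 lay more than 4 fold above both other mutant libraries for 4 ugt genes (ugt-15, ugt-18, ugt-43 and ugt-44) and for cyp-25A1 and cyp-37B1. Wild-type replicate 1 lay more than 4 fold below both other wild-type libraries for 6 cyp genes (8.45%), 9 ugt genes (14.3%) and 4 gst genes (10.5%), where 2.05% of all genes tested did so. Among them were cyp-25A1, ugt-22, ugt-62, gst-10 and gst-13. Wild-type replicate 2 lay as far below the others for 6 cyp genes (8.45%) and 3 ugt genes (4.76%), beside 2.37% of all genes tested, and these included cyp-13B1, cyp-34A9, cyp-37B1 and ugt-18. Wild-type replicate 3 was the highest of all 6 libraries for 29 cyp genes (40.8%), 17 ugt genes (27.0%) and 9 gst genes (23.7%), beside 16.5% of all genes tested.

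**Figure D4:**
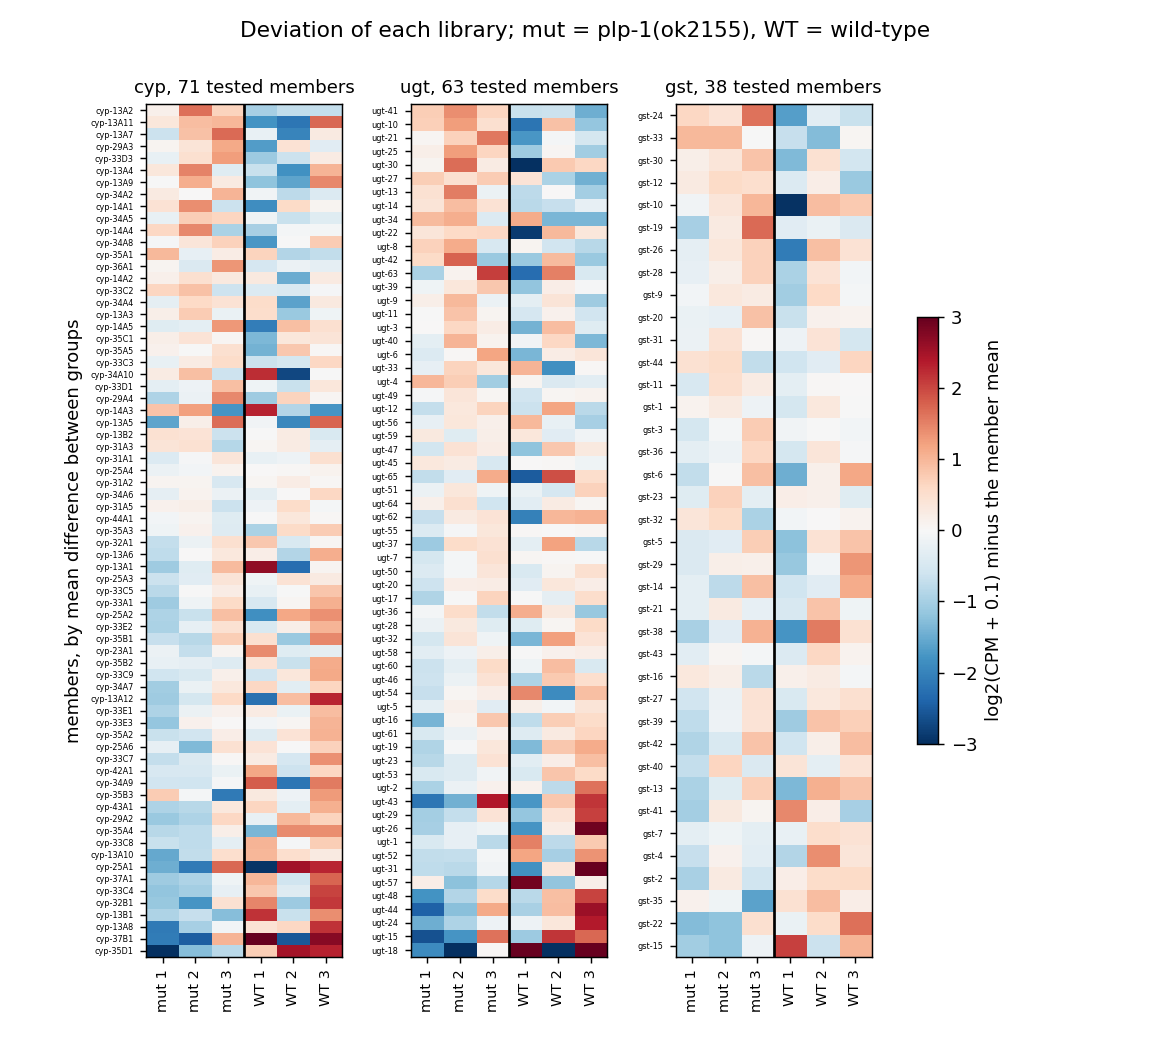
Deviation of log2(CPM + 0.1) from the member's mean over 6 libraries, for each tested member of the cyp, ugt and gst families, with the plp-1(ok2155) libraries left of the black line and the wild-type libraries right of it; members are ordered by the difference between group means. Wild-type replicate 3 is the highest library in 29 of 71 cyp genes, and wild-type replicate 1 is over 4 fold below both other wild-type libraries in 9 of 63 ugt genes.

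The families lie in runs of neighbouring copies in the genome. On chromosome V were 44 of 81 cyp genes (54.3%) and 41 of 65 ugt genes (63.1%), beside 24.8% of protein-coding genes, while 25 of 44 gst genes were on chromosome II. The 81 cyp genes include entries with no biotype, such as cyp-35D2. Counting members no more than 10000 bases apart, runs of 3 or more held 32 cyp genes in 5 runs, 24 ugt genes in 5 runs and 25 gst genes in 4 runs. Neighbours are not independent of each other where their reads can be shared, so the values along a run are given as a description.

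In some runs neighbours differed in the same direction and in others they did not. The 7 ugt genes at chromosome V, 4887221 to 4911379 (ugt-8 to ugt-14), had log2 fold changes between -0.01 and 1.32 with a median of 0.98, and 6 were positive. Of this run ugt-13 had 18.9, 39.9 and 12.1 CPM in the mutant, against 7.90, 13.7 and 6.72 CPM in wild-type, with overlap (log2 fold change 1.32, SE 0.51, adjusted p = 0.448 by edgeR). The run of ugt-18, ugt-16 and ugt-15 at 12820333 to 12830058 held 3 negative values, between -5.50 and -0.22. Around ugt-41, at 7139602 to 7169205, 3 of 5 tested genes were positive, and the next highest value after ugt-41 was 0.62, for ugt-39.

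The P450 runs held values of both signs, except the run of cyp-25A genes. The 3 genes of that run, at chromosome III, 3832649 to 3839477, were all negative, between -1.46 and -0.35. The 9 cyp-13A genes at chromosome II, 9779345 to 9807532, held 6 positive and 3 negative values between -2.74 and 1.81. The 11 genes of the cyp-35 and cyp-34A run at chromosome V, 3936396 to 3972990, held 4 positive and 7 negative values between -1.54 and 0.89. In the gst run at chromosome II, 13608248 to 13630887, the neighbours gst-24 and gst-15 held the highest and the lowest value, 1.80 and -1.95. The second long gst run on that chromosome, at 15163865 to 15185377, stayed between -0.98 and 0.37.

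**Figure D5:**
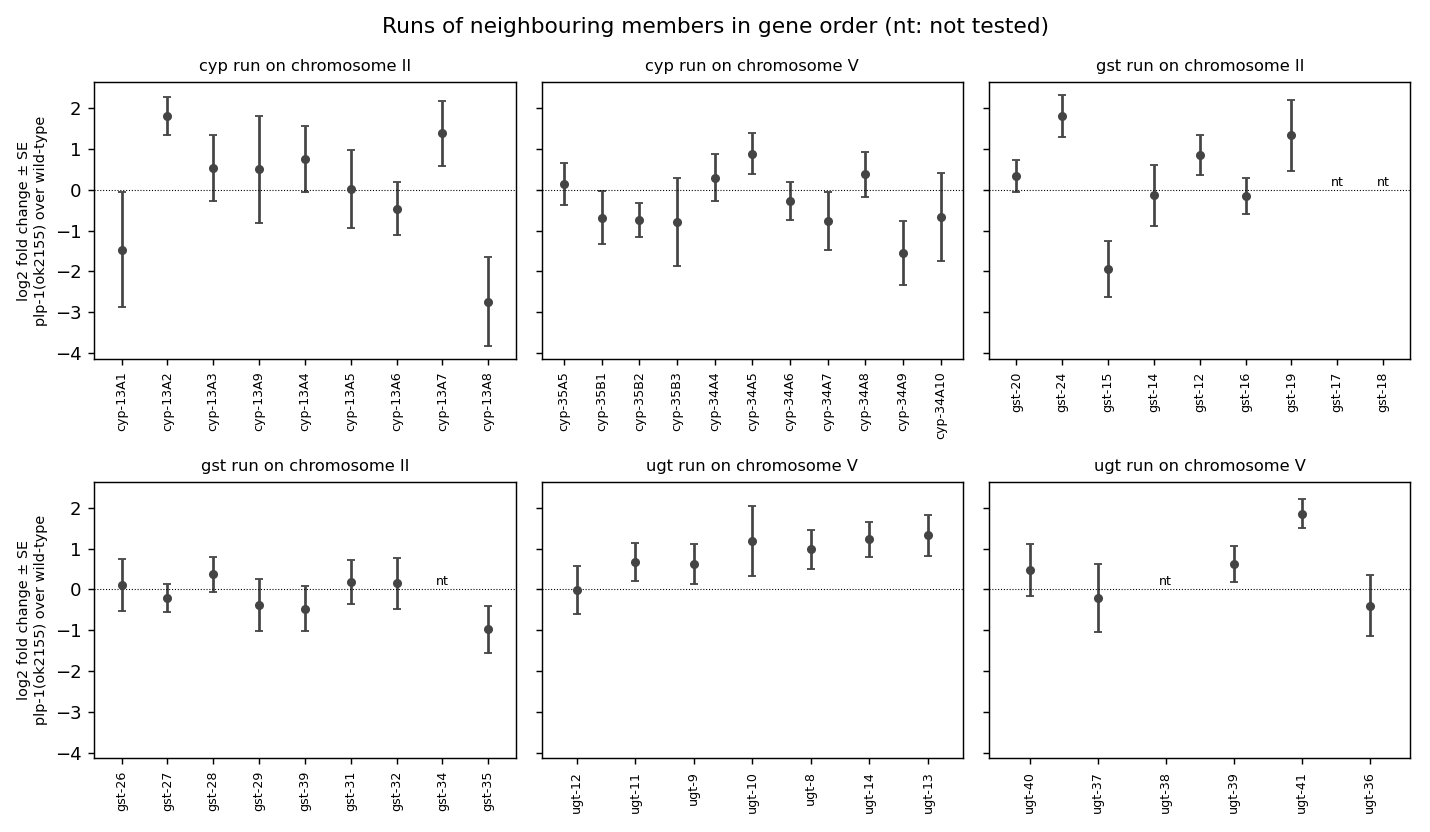
Log2 fold change ± SE, plp-1(ok2155) over wild-type, of members in 6 runs of neighbouring copies, in the order of their positions; nt marks members with too few counts for a test. The ugt run from ugt-12 to ugt-13 lies between -0.01 and 1.32, while the gst run that holds gst-24 and gst-15 spans -1.95 to 1.80.

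Genes that work with the 3 families were examined from 6 lists, and edgeR called none of their members. The phase I partners were a P450 reductase, cytochrome b5 genes and a hormone-making P450. None of the 4 had an unadjusted p under 0.05, and DESeq2 and the paired fit called none. The reductase emb-8 had a log2 fold change of 0.22 (SE 0.27, adjusted p = 0.837 by edgeR). The P450 daf-9, which makes the steroid hormone dafachronic acid, had one of 0.60 (SE 0.80, adjusted p = 0.851 by edgeR). Of 5 flavin monooxygenases, which also oxidise xenobiotics, 1 was higher at an unadjusted p under 0.05, and DESeq2 and the paired fit called none. It was fmo-4, with 64.2, 79.1 and 90.8 CPM in the mutant, against 44.5, 59.9 and 51.4 CPM in wild-type (log2 fold change 0.59, SE 0.24, adjusted p = 0.495 by edgeR). For fmo-2 the log2 fold change of -2.14 (SE 1.46, adjusted p = 0.704 by edgeR) was 0.04 without wild-type replicate 3.

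Of 30 short-chain dehydrogenases (dhs), which reduce or oxidise alcohols and ketones, 22 had a negative log2 fold change, with a median of -0.21. The share with a positive value was 26.7%, beside 47.5% of all genes tested. At an unadjusted p under 0.05, 1 was higher (3.33%, beside 6.36% of all genes tested) and 5 were lower (16.7%, beside 3.2%). The higher one was dhs-26, with 7.05, 8.52 and 2.40 CPM in the mutant, against 0.124, 0.486 and 0.450 CPM in wild-type (log2 fold change 4.096, SE 0.73, adjusted p = 0.0860 by edgeR). It was called with paired replicates (4.08, adjusted p = 0.0250), in DESeq2 (4.09, adjusted p = 1.85e-07) and by limma on FPKM (3.78, adjusted p = 0.0403). For dhs-18 the mutant had 26.9, 34.5 and 43.6 CPM and wild-type 85.3, 50.4 and 203 CPM (log2 fold change -1.69, SE 0.49, adjusted p = 0.245 by edgeR, DESeq2 adjusted p = 0.0389), and the edgeR value was -1.01 without wild-type replicate 3. The paired fit also called dhs-20, lower in the mutant (-1.68, adjusted p = 0.00837, against an edgeR adjusted p of 0.357 without pairing).

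None of 14 glutathione genes outside the gst family had an unadjusted p under 0.05 or was called by DESeq2 or the paired fit. In this list 3 log2 fold changes were positive and 11 negative, with a median of -0.13. The positive share was 21.4%, beside 47.5% of all genes tested. The gene gcs-1, which encodes the rate-limiting enzyme of glutathione synthesis and is a target of SKN-1, had a log2 fold change of 0.11 (SE 0.21, adjusted p = 0.903 by edgeR). The kappa-class transferases gstk-1 and gstk-2 had -1.35 (SE 0.68, adjusted p = 0.594) and -1.21 (SE 0.54, adjusted p = 0.531), which were -0.57 without wild-type replicate 3 for gstk-1 and -0.68 without wild-type replicate 1 for gstk-2. Of 23 ABC efflux transporters, which pump conjugates out of cells, 14 had a negative log2 fold change. An unadjusted p under 0.05 was found for 3, all lower (13.04%, beside 3.2% of all genes tested). DESeq2 called none, but it gave no adjusted p to pgp-7 and pgp-5, which had the smallest edgeR p of this list. The P-glycoprotein gene pgp-7 had 10, 0 and 0 counts in the mutant and 72, 0 and 1789 counts in wild-type. The size of its log2 fold change, -7.90 (adjusted p = 0.346 by edgeR), rested largely on wild-type replicate 3, without which it was -3.03. In pgp-5 the mutant had 10.8, 12.5 and 34.5 CPM and wild-type 28.4, 21.6 and 409 CPM. The log2 fold change of pgp-5, -2.99 (SE 1.12, adjusted p = 0.431 by edgeR), was -0.40 without wild-type replicate 3. The paired fit called pgp-6, lower in the mutant (-2.54, adjusted p = 0.0189, against an edgeR adjusted p of 0.457 without pairing).

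Among 20 regulators of xenobiotic and oxidative stress genes, 9 had a positive log2 fold change and the median was -0.05. The p38 kinase gene pmk-1, which acts in immunity and upstream of SKN-1, was the single regulator with an unadjusted p under 0.05. It had 53, 56.5 and 47.8 CPM in the mutant, against 21.5, 19.0 and 21.5 CPM in wild-type, and the groups were far apart. On the log2 scale this was a fold change of 1.34 (SE 0.24, adjusted p = 0.0860 by edgeR). It was called with paired replicates (1.34, adjusted p = 0.0273) and in DESeq2 (1.33, adjusted p = 0.000275). For skn-1 itself the mutant had 188, 138 and 119 CPM and wild-type 133, 90.2 and 99.0 CPM, with overlap (log2 fold change 0.47, SE 0.27, adjusted p = 0.644 by edgeR).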

How the data were processed

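The authors deposited a gene and a transcript table, each giving counts and FPKM for every library. Per the submitters' processing notes, the tools were HISAT2 2.1.0 and Bowtie2 2.3.4.1, StringTie 1.3.4d, DESeq2, and also FastQC 0.11.7 and Trimmomatic 0.38, with no roles given. Per the labels' protocols, libraries came from a stranded, poly(A)-selecting kit. The file labels name WBcel235, and coordinates are 1-based on it. The deposited counts are estimated counts that had been rounded up, checked against FPKM and length in 100% of low transcript counts (tolerance 0.05). The deposited FPKM rest on coding lengths. Rounded-up counts entered the tests as deposited, which gives very low estimates at least 1 count. The design had assumed raw counts.

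The 24 entries without a symbol, 0.00236% to 0.0246% of the counts of a library, were left out. Genes were kept by edgeR's filterByExpr and scaled by TMM. The group was the single term of edgeR's quasi-likelihood test (4.0.16, R 4.3.3), Benjamini-Hochberg adjusted over 15090 genes and called under 0.05. SEs are fold changes divided by the root of F, and the common biological coefficient of variation was 47.1%. Annotated overlaps come from the Ensembl annotation of WBcel235, which matched 184 members. The 6 members not matched were cyp-13A9, cyp-25A5, cyp-29A1, cyp-31A1, cyp-34A3 and cyp-35D2. Exons of 43 members overlap a gene on the opposite strand. Among these were ugt-22 (309 bases with srz-29), cyp-36A1 (147 with figo-1), cyp-35B1 (102 with K07C6.16) and cyp-31A5 (101 with Y62E10A.19). Alternatives were DESeq2 (1.42.0), RLE and upper-quartile scaling, no filter, limma (3.58.1) on log2(FPKM + 0.1), the replicate number as a block, and each library left out.

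Both groups share replicate numbers in the labels. Deviations from group means correlated at 0.285, 0.205 and 0.358 between same-numbered libraries and at -0.34 to -0.041 between others. Such deviations cancel out within a group, so the negative values between others follow in part from the positive same-number values. All same-number values being above 0.1, the numbers were taken to pair the libraries, on the data and not on a statement of the labels.

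Members and lists were chosen with earlier results of these data known. Named were plp-1, in each family the 3 members of each sign with the smallest p and the 3 with the highest FPKM, 20 genes chosen for their roles, and the 2 genes with the smallest p of each other list. Further members were named after their values were seen. Cell type lists held 14 intestinal, 6 yolk, 35 sperm, 10 oocyte, 8 endoderm, 10 epidermal and 8 excretory and pharyngeal genes. The intestinal gene opt-2 was not found under that symbol.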

Additional observations from a re-analysis of the deposited data

How the results depend on the processing

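No member was called by edgeR in any of the 3 families, and this held with RLE and upper-quartile scaling, without the filter, with limma on FPKM and without each library in turn. With the replicate block, which pairs the libraries, 1 cyp, 3 ugt and 0 gst genes were called. With DESeq2 4 cyp, 1 ugt and 1 gst genes were called. Of 51 named and tested genes, 40 kept the sign of the log2 fold change under all 12 alternatives and 11 turned under at least 1. In ugt-62 it was 0.017 with limma on FPKM, and in cyp-31A3 it was -0.0033 without the filter and -0.026 with the replicate block. With single libraries left out, the values ran from -0.17 to 1.04 in ugt-22, -0.085 to 0.27 in gst-1, -0.37 to 0.63 in gst-10, -0.70 to 0.28 in gst-5, -1.02 to 0.20 in gst-42 and -0.15 to 0.30 in cyp-31A3. They ran from -0.023 to 0.67 in cyp-14A2, -0.081 to 0.99 in daf-9, -0.026 to 0.13 in gcs-1 and -3.51 to 0.045 in fmo-2. The cause was not tested. Over the tested members the sign held without each library in 49 of 71 cyp, 36 of 63 ugt and 16 of 38 gst genes. Over all alternatives the median log2 fold change lay between -0.59 and -0.14 for cyp genes, -0.33 and 0.11 for ugt genes and -0.27 and 0.12 for gst genes, so the ugt and gst medians took both signs. The count of all genes called was 52 with edgeR, 219 with the replicate block, 598 with DESeq2, and between 1 and 23 without single libraries. With 3 libraries per group, the spread between libraries and the low counts of many members limit the precision of single values.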
